A study of Homo sapiens with 33 samples.

Results

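The genes described are 10 human genes of prostaglandin and leukotriene synthesis and signalling, measured in THP-1 cells treated with retinoic acid, tumor necrosis factor or both. They are PTGS1, PTGS2, PTGES, TBXAS1 and PTGER4 on the prostanoid side, and ALOX5, ALOX5AP, LTA4H, LTC4S and LTB4R on the leukotriene side. They were picked out by name from 19775 genes on the array, and all of their 22 probe sets, of 54613 that are not controls, were examined. The choice rested partly on measured values. PTGES, PTGS1, ALOX5AP and LTB4R had been noted as higher with retinoic acid against vehicle at 40 h, and PTGES also with both agents against tumor necrosis factor alone. Those 2 comparisons are therefore given as a description of the members, with no test. The other comparisons at 40 h reuse wells on which that choice was made. Their p-values for the noted genes do not allow for it. The fit of the time course also held some of the RA and vehicle wells at 40 h. They entered the choice of probe sets to test and the estimate of the spread, but not the differences.

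THP-1 is a human monocytic leukaemia line, and each array held RNA from a separate culture well, so p-values measure the spread between wells of this 1 line. RA is retinoic acid at 20 nM, given in ethanol at the start and added again after 16 h in the wells kept to 40 h. TNF is tumor necrosis factor at 5 ng/ml, present for the last 24 h. The 40 h groups were RA plus TNF (n = 5), RA alone (n = 5), TNF alone (n = 5) and ethanol vehicle (n = 6). The time course held RA wells at 2 h (n = 2), 6 h (n = 2) and 16 h (n = 3), with 5 ethanol vehicle wells. Those 5 wells and 3 of the 6 vehicle wells at 40 h are titled as 0 h controls, while their protocols give a harvest at 16 h and at 40 h. Each is named here by its protocol, and no vehicle well was matched to 2 h or 6 h.

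Arachidonic acid, freed from membrane lipids by phospholipases, is the shared precursor of both families. Cyclooxygenases, encoded by PTGS1 and PTGS2, convert it to prostaglandin H2, from which microsomal prostaglandin E synthase (PTGES) makes prostaglandin E2 and thromboxane synthase (TBXAS1) makes thromboxane A2. 5-Lipoxygenase (ALOX5), helped by its activating protein (ALOX5AP, also called FLAP), makes leukotriene A4, which LTA4H turns into leukotriene B4 and LTC4S into leukotriene C4. Monocytes and macrophages make both kinds of mediator and carry receptors for them, among them PTGER4 for prostaglandin E2 and LTB4R for leukotriene B4.

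RefSeq promoter windows (GRCh38.p14, 250 bases before to 50 after a start) were found for 9 of the 10 members, as 10 windows. They were searched on both strands for direct repeats of 6 retinoid receptor hexamers with spacers of 1, 2 or 5 bases, and for the NF-kB consensus. The first hexamer is AGGTCA, known as the core motif of nuclear receptors. Searched alongside it was GGGTCA, a common variant of the core. The forms with a different middle were AGTTCA, found in some natural elements, and the related hexamer GGTTCA. The remaining forms have another ending, spelled AGGTGA in the first of them and in the other one GGGTGA. Any pair of the hexamers could make up a repeat. The windows of 3 genes are shown, those of ALOX5AP and PTGER4, which held a match, and that of PTGES, which held none. Capitals mark a match, and a window without capitals held none. Only the windows of ALOX5AP and PTGER4 held a match, and the other 8, that of LTC4S among them, held none.
ALOX5AP, chr13:30713235-30713534, plus strand: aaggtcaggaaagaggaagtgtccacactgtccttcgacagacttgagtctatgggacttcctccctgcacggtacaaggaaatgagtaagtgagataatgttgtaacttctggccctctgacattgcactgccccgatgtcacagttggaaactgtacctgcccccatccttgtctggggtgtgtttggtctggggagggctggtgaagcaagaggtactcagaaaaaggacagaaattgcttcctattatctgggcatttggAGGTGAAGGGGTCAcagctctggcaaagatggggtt
PTGES, chr9:129752993-129753292, minus strand: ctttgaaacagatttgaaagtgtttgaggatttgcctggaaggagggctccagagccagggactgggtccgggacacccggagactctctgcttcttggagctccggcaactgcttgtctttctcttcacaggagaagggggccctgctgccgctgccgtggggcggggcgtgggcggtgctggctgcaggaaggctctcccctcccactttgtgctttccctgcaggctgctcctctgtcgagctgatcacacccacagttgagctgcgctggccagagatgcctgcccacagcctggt
PTGER4, chr5:40679665-40679964, plus strand: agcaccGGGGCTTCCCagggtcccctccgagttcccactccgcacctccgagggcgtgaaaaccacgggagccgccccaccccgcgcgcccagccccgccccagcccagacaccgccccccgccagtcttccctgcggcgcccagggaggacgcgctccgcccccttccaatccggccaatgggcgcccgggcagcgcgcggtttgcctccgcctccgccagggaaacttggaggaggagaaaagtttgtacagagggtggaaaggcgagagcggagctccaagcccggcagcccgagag
The ALOX5AP match is a repeat with a spacer of 2 bases, from base 15 to base 28, counting the start as base 1 (chr13:30713499-30713512). Such a repeat stood in 0.157% of 35116 RefSeq windows. The PTGER4 match is an NF-kB motif 244 to 235 bases before the start (chr5:40679671-40679680), a motif that 5.91% of windows held. A match is a run of letters in the genome, and binding was not measured.

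Each level below is the GCOS signal recovered from the deposited values, and each log2 difference is between values centred on the array median, as deposited. A gene stands for its brightest probe set unless another is named, and levels are compared only within a probe set. Whether wells overlap is said of the signals, and where the centred values give another answer that is stated. Probe sets entered the tests when their mean over the arrays of a fit reached the median of all probe sets. That kept 17 of the 22 probe sets and 9 of the 10 genes. Shares of all genes are of those that passed this filter, while counts out of 10 members include PTGS2, which did not. Array medians ranged from 18.9 to 45.2 signal units. The arrays formed 2 runs of record numbers in the labels, called array set 1 (12 arrays, all at 40 h) and array set 2 (21 arrays). The log2 3' to 5' signal ratio of ACTB, a measure of RNA quality, averaged 1.31 ± 0.33 over the 12 arrays of set 1 and 0.51 ± 0.28 (SDs) over the 21 of set 2. In the time course it averaged 0.22 ± 0.11 with RA at 2 h and 0.21 ± 0.12 at 6 h (SD, n = 2 each). It was 0.77 ± 0.33 with RA at 16 h (n = 3) and 0.43 ± 0.23 in vehicle at 16 h (n = 5). The part of RNA quality in the time course was not tested. Of 9 monocytic marker genes on the array, 6 were above the array median on every array. All 5 mast cell, 5 megakaryocyte and 3 eosinophil markers averaged below it, as did 3 of 4 lymphocyte markers.

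PTGS2, the inducible cyclooxygenase, gave almost no signal in any group. Its probe set 204748_at lay between 1.4 and 53.1 units and below its own array's median on 28 of 33 arrays. The other, 1554997_a_at, lay below it on 33 of 33. In RA plus TNF wells 204748_at read 26.2, 23.6, 11.5, 53.1 and 27.3 units, and in vehicle at 40 h it had a lowest value of 2.9, a median of 22.7 and a highest of 36.4 units. These ranges overlap, and both probe sets stayed below the brightness filter and were not tested. ALOX5 was carried by 1 of its 4 probe sets, 204446_s_at, since the other 3 were below the filter.

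The RA time course asks when each gene moved. At 2 h no member was called by limma at a Benjamini-Hochberg adjusted p under 0.05, where 0.528% of 12507 genes were. At an unadjusted p under 0.05 there were 3 members. The share of all genes at that threshold was not computed, so nothing is read from unadjusted counts here or below. At 6 h PTGS1, ALOX5AP and LTB4R had risen, 3 of 10 members against 3.89% of all genes. At 16 h they were joined by PTGES, which made 4 of 10 members against 4.25% of all genes, and none was called lower at any time. The members called are the 4 picked because RA raised them at 40 h, so nothing is read from these counts. The arrays at 2 h and 6 h had low medians (23.3 ± 1.6 and 22.2 ± 4.7 units, SD, n = 2 each) beside 29.4 ± 4.3 in vehicle at 16 h (SD, n = 5). The median difference of all genes was accordingly 0.32 at 2 h, 0.38 at 6 h and -0.17 at 16 h on the log2 scale. Each tested member is also given relative to it. Of 8 tested monocytic markers, 1 rose at 6 h and 2 at 16 h, and the list summed to 14817 to 18058 units at 16 h and 10851 to 15652 in vehicle at 16 h. Its part in these results was not tested.

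ALOX5AP, which presents arachidonate to 5-lipoxygenase, had a higher signal at each later time. Its signal was 1948 and 1549.9 units at 2 h, 3172 and 2678 at 6 h, and 6622, 6072 and 5096 at 16 h, against 1206, 1317, 1028, 1283 and 873 in vehicle at 16 h. Every RA well was above every vehicle well, and the 3 times did not overlap one another. The log2 difference was 0.95 ± 0.23 at 2 h (SE, adjusted p = 0.0764), 1.78 ± 0.23 at 6 h (adjusted p = 1.28e-05) and 2.24 ± 0.20 at 16 h (adjusted p = 3.33e-08). Relative to the median of all genes these were 0.64, 1.40 and 2.41. The 16 h difference was 4.73-fold and lay between 2.08 and 2.36 when any of the 8 wells was left out.

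LTB4R, the high-affinity leukotriene B4 receptor, read 186 and 176 units at 2 h, 306 and 317 at 6 h, and 359, 363 and 385 at 16 h, against 99.6, 116, 138, 100.3 and 137 in vehicle at 16 h. No RA well overlapped the vehicle wells. The log2 difference was 0.96 ± 0.25 at 2 h (adjusted p = 0.112), 1.82 ± 0.25 at 6 h (adjusted p = 2.22e-05) and 1.51 ± 0.22 at 16 h (adjusted p = 5.32e-05), or 0.64, 1.44 and 1.68 relative to the median of all genes. All 3 LTB4R probe sets were called at 6 h and at 16 h. For the dimmest, 216388_s_at, the 16 h call held in 6 of the 8 fits that left out a single well (highest adjusted p = 0.104).

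PTGS1, the constitutive cyclooxygenase, rose between 2 h and 6 h. It read 473 and 545 units at 2 h, 868 and 1009 at 6 h, and 1216, 1418 and 1291 at 16 h, against 482, 473, 600.1, 509.9 and 574 in vehicle at 16 h. Only the 2 h wells overlapped vehicle. The log2 difference was 0.28 ± 0.22 at 2 h (adjusted p = 0.516), 1.24 ± 0.22 at 6 h (adjusted p = 0.000783) and 1.17 ± 0.19 at 16 h (adjusted p = 0.000366). Relative to the median of all genes PTGS1 stood at -0.04, 0.86 and 1.34. The 6 h call was lost without the second 6 h well (0.92, adjusted p = 0.177). Of the 4 PTGS1 probe sets, 3 were called at 6 h and 2 at 16 h, and all 4 had positive differences on the deposited scale at each time.

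PTGES, the inducible prostaglandin E synthase, lay around or below the array median without RA. It reached the brightness filter through wells with RA, so its test was made on a gene that was bound to be high in them. Its signal was 20.9 and 12.2 units at 2 h, 82.4 and 64 at 6 h, and 210.1, 208 and 149.6 at 16 h, against 21.5, 25.9, 18.2, 33 and 2.5 in vehicle at 16 h. The 6 h and 16 h wells were all above vehicle and did not overlap each other. At 16 h the log2 difference was 3.47 ± 0.77 (adjusted p = 0.00865), at 6 h 2.66 ± 0.88 (adjusted p = 0.103) and at 2 h 0.39 ± 0.88 (adjusted p = 0.832). Relative to the median of all genes PTGES stood at 3.64 at 16 h, 2.27 at 6 h and 0.08 at 2 h. No fold is given, since the vehicle mean lay below the array median. On log2 of signal plus 32 units, which damps dim values, the differences were 2.10 ± 0.22 at 16 h (adjusted p = 4.74e-07) and 1.04 ± 0.25 at 6 h (adjusted p = 0.0216), and without the intensity trend the 16 h call was lost. The second PTGES probe set, 207388_s_at, differed by 0.95 ± 0.52 at 16 h (adjusted p = 0.347) and by -2.42 ± 0.60 at 2 h (adjusted p = 0.0833), so the probe sets parted at 2 h.

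PTGER4, a receptor for prostaglandin E2, had its lowest values early. It read 1056 and 1098 units at 2 h, 1151 and 1292 at 6 h, and 1827, 1664 and 1889 at 16 h, against 1894, 2011, 2372, 1973 and 1944 in vehicle at 16 h. Every RA well was below every vehicle well on the signals, widely at 2 h and only just at 16 h. On the centred values only the 2 h wells were, and those at 6 h and 16 h overlapped vehicle. On that scale the log2 difference was -0.59 ± 0.22 at 2 h (adjusted p = 0.41), -0.33 ± 0.22 at 6 h (adjusted p = 0.376) and -0.33 ± 0.19 at 16 h (adjusted p = 0.38), and none was called. Relative to the median of all genes PTGER4 stood at -0.90, -0.71 and -0.16. On the signals before centring it was called at 2 h (-0.92 ± 0.12, adjusted p = 0.000145) and at 6 h (-0.74 ± 0.12, adjusted p = 0.000502), but not at 16 h (-0.18 ± 0.10, adjusted p = 0.319). The second probe set, 204896_s_at, differed by -0.05 ± 0.84 at 2 h.

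**Figure D1:**
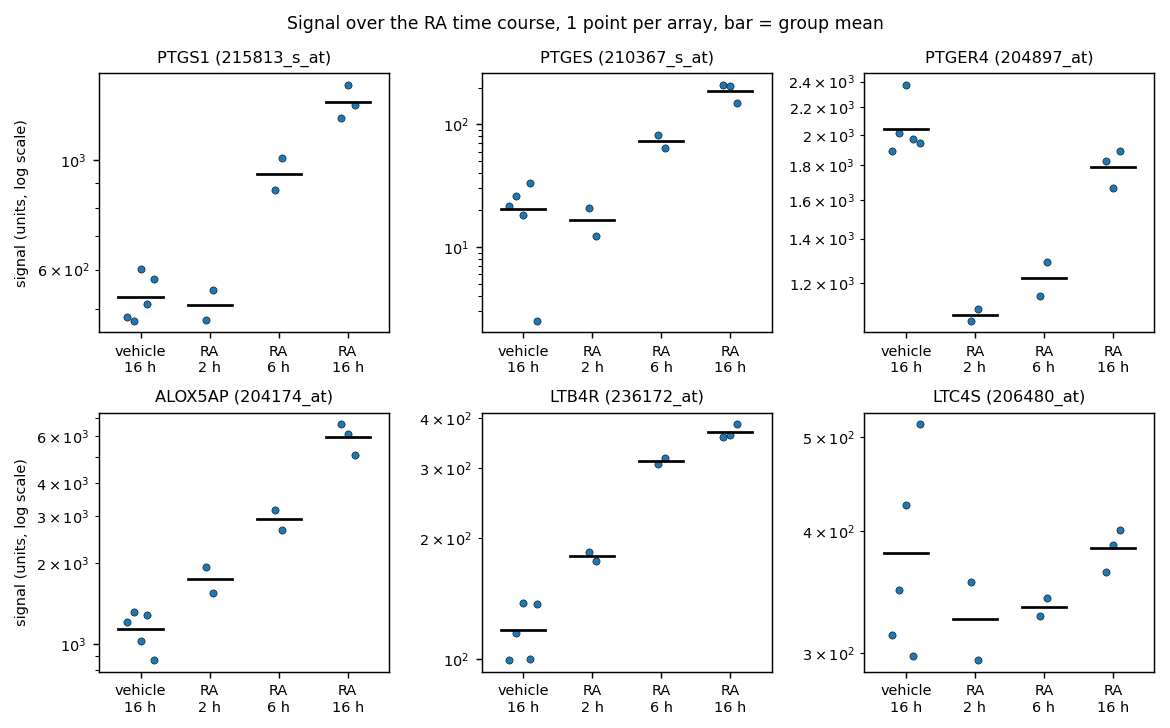
Signal in units on a log axis for 6 members over the RA time course, with vehicle at 16 h at the left and RA at 2 h, 6 h and 16 h after it. Each point is 1 array and each bar a group mean, and ALOX5AP, LTB4R, PTGS1 and PTGES stand above vehicle at 6 h and 16 h, while PTGER4 is lowest at 2 h.

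LTA4H, LTC4S, ALOX5 and TBXAS1 were not called at any time. LTA4H, which makes leukotriene B4, read 2249, 2464 and 2183 units at 16 h against 1396, 1573, 1500.3, 1686 and 1681 in vehicle at 16 h, without overlap. Its log2 difference of 0.41 ± 0.18 gave an adjusted p of 0.227 on the deposited scale, and 0.55 was called on the signals before centring. LTC4S, the leukotriene C4 synthase, stayed between -0.10 and 0.26 on the log2 scale. ALOX5 lay between 0.27 and 0.49 and TBXAS1 between 0.42 and 0.64. Relative to the median of all genes, LTA4H stood at 0.07 at 2 h, 0.11 at 6 h and 0.58 at 16 h. At the same times LTC4S stood at -0.19, -0.13 and 0.07, ALOX5 at 0.18, 0.07 and 0.44, and TBXAS1 at 0.11, 0.05 and 0.81.

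**Figure D2:**
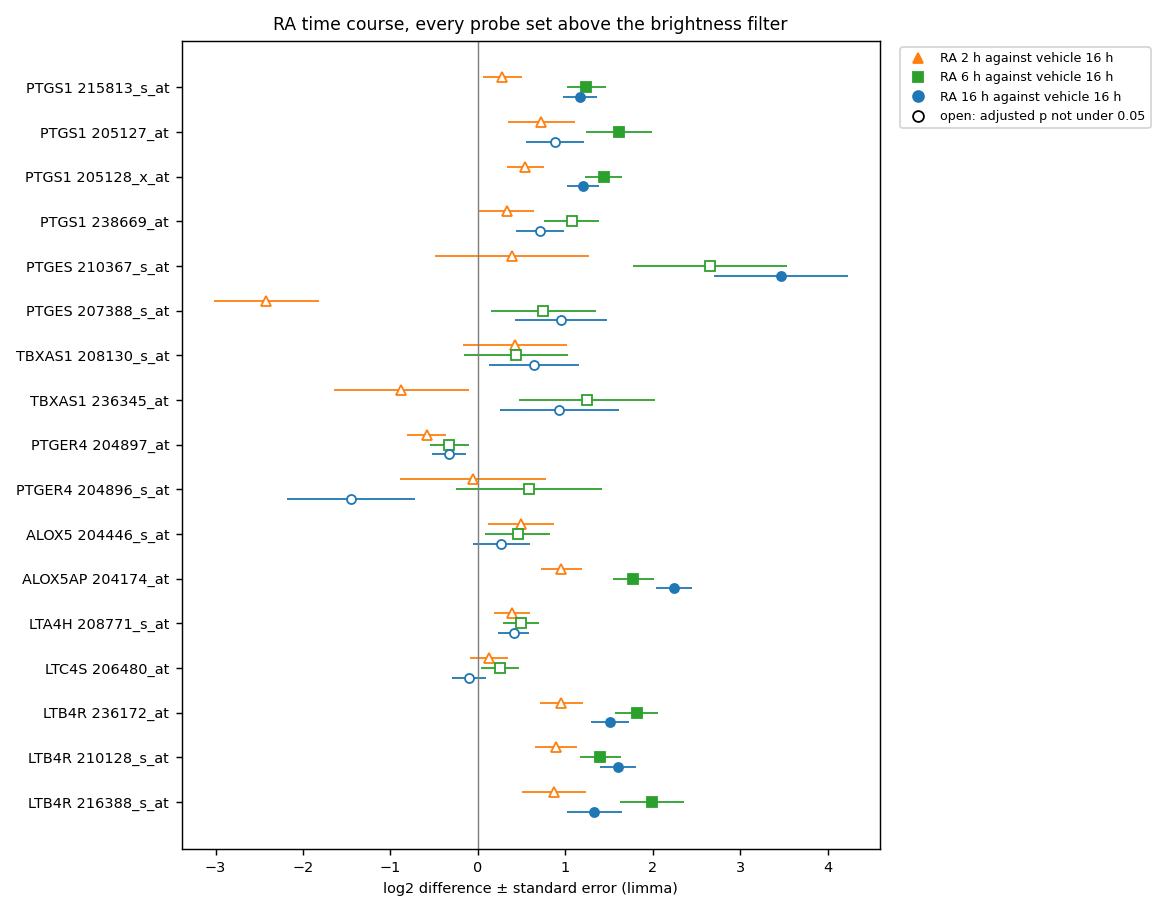
Log2 difference from vehicle at 16 h with its standard error, for RA at 2 h, 6 h and 16 h, for each of the 17 probe sets that passed the brightness filter. Filled symbols had an adjusted p under 0.05 in limma, and the probe sets of PTGS1 and LTB4R lie on 1 side of 0 while those of PTGES, TBXAS1 and PTGER4 part from one another.

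Of 68 other genes of arachidonate release, prostanoid and leukotriene metabolism and their receptors, 62 had a probe set and 42 passed the filter. No such gene was called at 2 h (4 at an unadjusted p under 0.05, with no share of all genes taken), 2 rose at 6 h and 1 fell at 16 h. These are 4.76% of the 42 at 6 h and 2.38% at 16 h, against 3.89% and 4.25% of all genes, which is near the background. At 6 h ABCC4, which exports prostaglandins, had a signal of 304 ± 21.0 units (SD, n = 2) against 168 ± 41.5 in vehicle at 16 h (SD, n = 5), a log2 difference of 1.31 ± 0.33 (adjusted p = 0.0232). PLA2G15, a lysosomal phospholipase, rose by 0.90 ± 0.25 (adjusted p = 0.0483), with signals of 294 ± 43.0 units at 6 h and 211 ± 38.1 in vehicle at 16 h. Neither difference is relative to the median difference of all genes at 6 h, which was 0.38. At 16 h ANXA1, a phospholipid-binding protein known to restrain phospholipase A2, fell by 0.80 ± 0.22 (adjusted p = 0.0416). None of the 5 other lipoxygenase genes passed the filter.

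At 40 h RA alone was set against vehicle as a description. By the fit, 4 of the 10 members were past the threshold and all were higher, against 3.73% of all genes. These 4 are the ones on which the choice was made, and nothing is read from the count. PTGES read 149, 140.4, 217, 318 and 271 units with RA, against a lowest of 1.1, a median of 7.6 and a highest of 38 in vehicle at 40 h. The groups were far apart, and the log2 difference was 5.27 ± 0.68, or 2.54 on log2 of signal plus 32 units. All 6 vehicle wells lay below their array's median, so the size of the first value rests on dim signals. The second PTGES probe set, 207388_s_at, differed by 1.12 ± 0.50, overlapped vehicle and was not past the threshold. ALOX5AP read 4532, 3940.1, 3485, 6454 and 6608 units with RA, against a lowest of 595, a median of 974 and a highest of 1507 in vehicle at 40 h (2.49 ± 0.21, 5.63-fold). PTGS1 averaged 1118 ± 218 units with RA and 531 ± 92.3 in vehicle (SD, n = 5 and 6), and LTB4R 468 ± 94.9 and 152 ± 38.2. Differences of 1.13 ± 0.15 and 1.70 ± 0.22 followed. The PTGS1 signals did not overlap, while the centred values did. Of the other PTGS1 probe sets, 205128_x_at and 238669_at were past the threshold and 205127_at (1.80 ± 0.54) was not. Of the 8 tested monocytic markers 3 rose with RA, and the list summed to 12916 to 15479 units with RA and 10530.0 to 14849 in vehicle. Its part in these values was not tested. In bulk RNA, fewer cells that express a gene and less of its RNA per cell cannot be told apart.

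LTA4H, which was not among the genes noted beforehand, had higher signals too, at 2992, 2339.5, 2338, 2190.4 and 2163 units with RA, against a lowest of 1460.3, a median of 1652 and a highest of 1948 in vehicle at 40 h. The signals did not overlap, but the centred values did, and the log2 difference of 0.54 ± 0.15 was not past the threshold. PTGER4 (-0.37 ± 0.15), LTC4S (-0.25 ± 0.27) and TBXAS1 (0.08 ± 0.26) overlapped vehicle. ALOX5 read 82.2, 3.4, 82.3, 93.4 and 128 units with RA, against a lowest of 44.8, a median of 71 and a highest of 325 in vehicle at 40 h. Its log2 difference was -0.75 over both array sets, -2.11 within set 1 and 1.01 within set 2. Set 1 holds the RA well at 3.4 units, replicate 2, and the vehicle well at 325 units, replicate 1. Without that RA well the pooled difference was 0.25, and without that vehicle well -0.28, so its direction turned on 1 array.

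**Figure D3:**
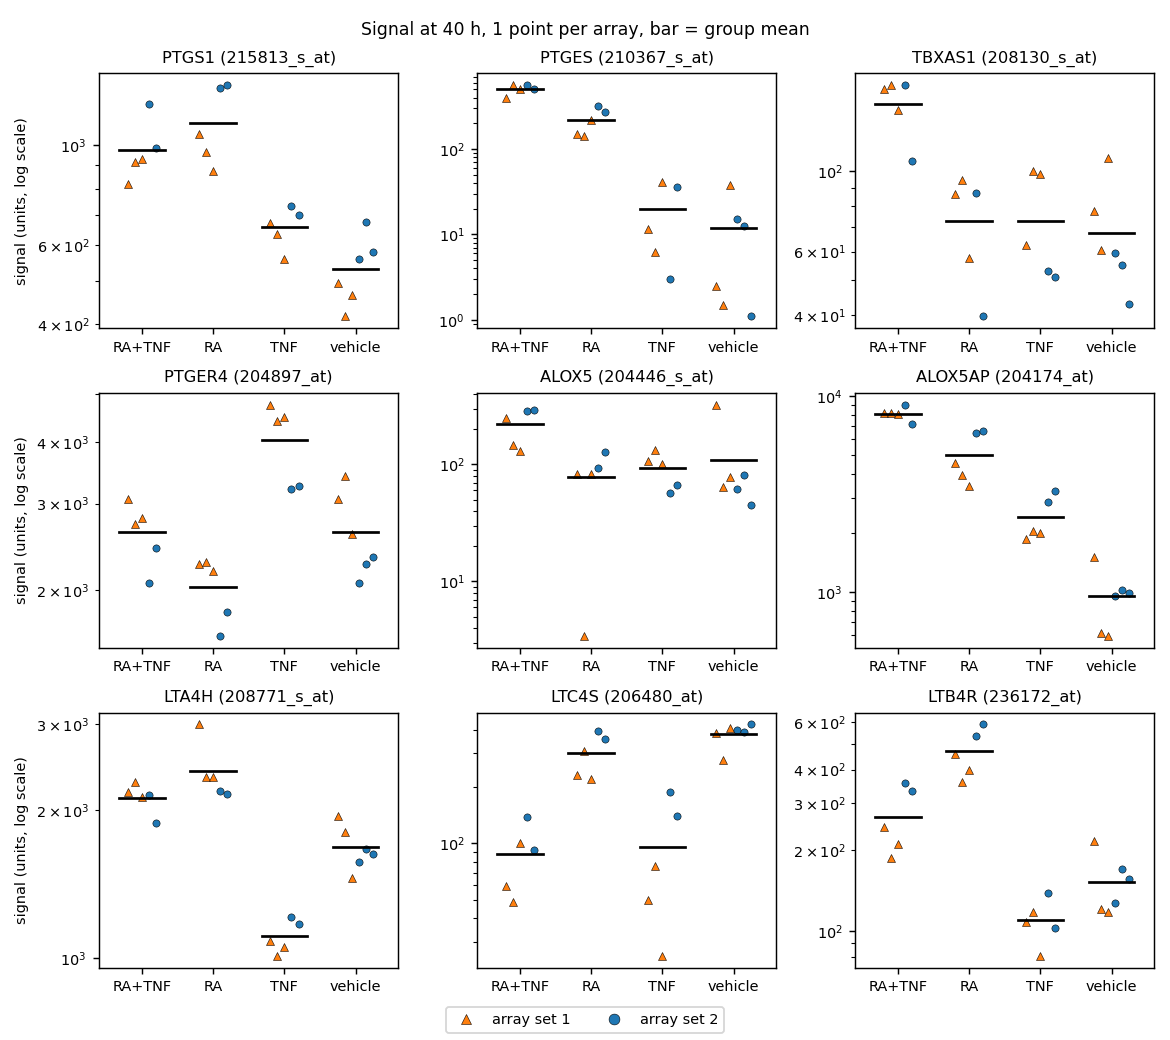
Signal in units on a log axis at 40 h for the 9 tested members, in RA plus TNF, RA, TNF and vehicle wells from left to right. Points are arrays, shaped by array set, and bars are group means. PTGES and ALOX5AP step up with RA, LTC4S is low in both groups with TNF, and 1 RA well of ALOX5 lies at 3.4 units.

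TNF alone was set against vehicle, both harvested at 40 h, to find what TNF changed without RA. ALOX5AP and PTGER4 rose, LTC4S and LTA4H fell, and PTGES, PTGS1, TBXAS1, ALOX5 and LTB4R were not called. That is 4 of 10 members, against 10.1% of all genes. The median log2 difference of the 9 tested members was 0.13, against -0.01 over all genes tested.

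LTC4S, which commits leukotriene A4 to the cysteinyl leukotrienes, showed the largest fall of the members. It read 50.1, 75.7, 25.3, 187 and 140.0 units with TNF, against a lowest of 277, a median of 393 and a highest of 428 in vehicle at 40 h. The groups did not overlap, and all 3 TNF wells of array set 1 were below the 2 of set 2. LTC4S differed by -2.19 ± 0.27 (adjusted p = 4.64e-07), or 4.55-fold lower. It was -2.92 within set 1 and -1.24 within set 2, and called in each.

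ALOX5AP read 1857, 2035, 1989, 2870.3 and 3272 units with TNF, against a lowest of 595, a median of 974 and a highest of 1507 in vehicle at 40 h. Every TNF well was above every vehicle well. This was a log2 difference of 1.46 ± 0.21 (adjusted p = 5.39e-06), or 2.76-fold, with 1.28 within set 1 and 1.71 within set 2. With any single array left out it lay between 1.32 and 1.69 and stayed called. ALOX5AP had been noted as higher with RA against these vehicle wells, and the p-value does not allow for that choice.

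LTA4H fell by a smaller amount. It read 1086, 1011, 1056, 1213 and 1176 units with TNF, against a lowest of 1460.3, a median of 1652 and a highest of 1948 in vehicle at 40 h. The signals did not overlap, while the centred values did. On the log2 scale LTA4H differed by -0.56 ± 0.15 (adjusted p = 0.0186), and the call was lost without any 1 of 4 of the 11 arrays, TNF replicates 2 and 3 and vehicle replicates 1 and 2 (highest adjusted p = 0.0718).

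PTGER4 read 4764, 4414, 4501, 3218 and 3261 units with TNF, against a lowest of 2067, a median of 2469 and a highest of 3406 in vehicle at 40 h. Within each array set every TNF well was above every vehicle well, while the pooled ranges overlapped, though not on the centred values. PTGER4 differed by 0.63 ± 0.15 (adjusted p = 0.00674). It was 0.62 in each array set alone, where it was not called (adjusted p = 0.136 and 0.0954). The second probe set, 204896_s_at, differed by 0.03 ± 0.57.

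PTGES stayed low with TNF alone, at 11.7, 6.2, 41.4, 3 and 36.2 units against a median of 7.6 units in vehicle at 40 h, and the groups overlapped (1.25 ± 0.68, adjusted p = 0.325). Its second probe set, 207388_s_at, overlapped too (-0.33 ± 0.50, adjusted p = 0.802). PTGS1 averaged 659 ± 66.0 units with TNF and 531 ± 92.3 in vehicle (SD, n = 5 and 6), with a log2 difference of 0.41 ± 0.15 (adjusted p = 0.0933). That difference was called on the signals before centring (0.36). LTB4R (-0.38 ± 0.22), TBXAS1 (0.11 ± 0.26) and ALOX5 (0.13 ± 0.62) overlapped vehicle.

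Among the other pathway genes, TNF raised 5 and lowered 6 of the 42 tested, or 26.2% against 10.1% of all genes. Their median log2 difference was -0.05, against -0.01 over all genes. Of 13 genes of arachidonate release and reuptake 2 rose and 2 fell. Of 6 other prostanoid enzymes 2 rose, and of 5 other prostanoid receptors 1 rose. Among 9 other leukotriene genes 2 fell, as did 1 of 4 genes of prostaglandin breakdown and transport and 1 of 5 epoxide and peroxide enzymes. PLA2G4C, a cytosolic phospholipase A2, averaged 608 ± 184 units with TNF and 144 ± 93.3 in vehicle (SD, n = 5 and 6), a log2 difference of 2.20 ± 0.22 (adjusted p = 5.81e-09). MGLL, a monoacylglycerol lipase that can supply arachidonate, rose by 1.34 ± 0.23 (adjusted p = 0.000133), and PTGIR, the prostacyclin receptor, by 1.74 ± 0.40 (adjusted p = 0.00391). PTGIR was dim in vehicle, at 34.8 ± 19.5 units beside a mean array median of 33.6, and averaged 102.3 ± 27.3 with TNF. CYSLTR1, a receptor for cysteinyl leukotrienes, averaged 316 ± 36.9 units with TNF and 692 ± 231 in vehicle, and fell by 1.07 ± 0.17 (adjusted p = 5.15e-05). The lymphocyte marker list, in which 3 of 4 genes averaged below the array median, summed to 364 to 573 units with TNF and 189 to 370 in vehicle, most of it NKG7, the 1 tested gene of the list, which rose. The monocytic list summed to 7442 to 11105 units with TNF and 10530.0 to 14849 in vehicle, and 2 of its 8 tested genes rose and 1 fell. CD14, a monocyte surface receptor, averaged 114.4 units with TNF and 29.4 in vehicle, and PRTN3, a granule protease, 1440.2 and 4473.7. The part of both lists in these results was not tested.

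RA plus TNF was set against RA alone, to find what TNF changed in cells already given RA. LTC4S and LTB4R fell, while ALOX5AP, TBXAS1 and ALOX5 rose, which is 5 of 10 members against 11.4% of all genes. The median log2 difference of the 9 tested members was 0.45, against 0.03 over all genes tested. LTC4S and TBXAS1 were the 2 members still called when the array set was left out of the model, and LTC4S was the 1 called in array set 2 alone.

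LTC4S read 59.3, 49.1, 100.5, 139 and 91.9 units with RA plus TNF, against 229.9, 309.8, 221, 393 and 356 with RA alone. No well overlapped. On the log2 scale the difference was -1.76 ± 0.28 (adjusted p = 3.23e-05), or 3.38-fold lower, with -1.71 within array set 1 and -1.84 within set 2.

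ALOX5AP reached its highest signal in the combined treatment. It read 8164, 8141, 8074, 9008 and 7161 units with RA plus TNF, against 4532, 3940.1, 3485, 6454 and 6608 with RA alone. The signals did not overlap, the centred values did, and the step was uneven between the array sets. ALOX5AP differed by 0.82 ± 0.22 (adjusted p = 0.0106), with 1.25 within set 1 (adjusted p = 0.0033) and 0.19 within set 2 (adjusted p = 0.774).

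TBXAS1, the thromboxane synthase, rose with TNF in the presence of RA. It read 169, 173, 148, 173 and 107 units with RA plus TNF, against 86.5, 94.4, 57.4, 86.9 and 39.7 with RA alone. The groups did not overlap. On the log2 scale TBXAS1 differed by 1.21 ± 0.27 (adjusted p = 0.00242), or 2.31-fold, and stayed called with any array left out (highest adjusted p = 0.0132). Its second probe set, 236345_at, was without overlap, at 1.58 ± 0.59 (adjusted p = 0.0941). That probe set reached the brightness filter through the RA plus TNF wells, where it averaged 62.7 units. It averaged 22.3 with RA, 23.3 with TNF and 23.6 in vehicle at 40 h, below the mean array median of each group. It was thus bound to be high in the combined wells and adds no support.

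ALOX5 read 249, 148, 131, 285 and 290.4 units with RA plus TNF, against 82.2, 3.4, 82.3, 93.4 and 128 with RA alone. The signals did not overlap, although the centred values did, and 1 RA well lay at the bottom of the scale. ALOX5 differed by 2.18 ± 0.64 (adjusted p = 0.0245). Without that RA well, replicate 2, it was 1.14 and the call was lost, as it was without RA plus TNF replicate 1 or 4 (highest adjusted p = 0.0848). The other 3 ALOX5 probe sets were below the filter, and their correlation with this one over 33 arrays was 0.034 to 0.199.

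LTB4R read 244, 187, 210.3, 356 and 333 units with RA plus TNF, against 458, 359.5, 398, 534 and 589.8 with RA alone. Every combined well was below every RA well on the signals, but not on the centred values. The log2 difference was -0.76 ± 0.23 (adjusted p = 0.0303). The call held in 6 of the 10 fits that left out a single array (highest adjusted p = 0.0992). The 4 losses came without RA replicate 1 or 5 or RA plus TNF replicate 2 or 3. The other LTB4R probe sets differed by -0.58 ± 0.23 (adjusted p = 0.11) and -0.90 ± 0.33 (adjusted p = 0.0794). LTB4R had been noted as higher in these RA wells, and the p-values do not allow for that choice.

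PTGES read 396, 559.9, 510.2, 565 and 509 units with RA plus TNF, against 149, 140.4, 217, 318 and 271 with RA alone, without overlap. Its log2 difference of 1.36 ± 0.71 was not called (adjusted p = 0.272). The spread behind that error is shared with the TNF and vehicle wells, where the signal was 1.1 to 41.4 units. On log2 of signal plus 32 units, the difference was 1.15 ± 0.24 (adjusted p = 0.000707). The second PTGES probe set, 207388_s_at, overlapped between the groups, at 1.14 ± 0.525 (adjusted p = 0.194). PTGER4 averaged 2622 ± 381 units with RA plus TNF and 2033 ± 304 with RA alone (SD, n = 5 each), at 0.45 ± 0.16 (adjusted p = 0.0737), and was called on the signals before centring (0.37 ± 0.09, adjusted p = 0.00495). LTA4H (-0.09 ± 0.16, adjusted p = 0.821) and PTGS1 (-0.11 ± 0.15, adjusted p = 0.765) overlapped between the groups.

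Of the 42 other pathway genes, 5 rose and 1 fell with RA plus TNF against RA alone, or 14.3% against 11.4% of all genes, which is near the background. MGLL averaged 292 ± 117 units with RA plus TNF and 65.3 ± 17.9 with RA alone (SD, n = 5 each), a log2 difference of 2.19 ± 0.24 (adjusted p = 4.99e-08). PLA2G4C rose by 1.94 ± 0.23 (adjusted p = 1.36e-07). GPX4, which reduces lipid hydroperoxides, rose by 1.24 ± 0.20 (adjusted p = 3.74e-05), and CYSLTR1 fell by 0.97 ± 0.18 (adjusted p = 0.000297). The lymphocyte list summed to 348 to 453 units with RA plus TNF and 128 to 247 with RA alone, without overlap, and its tested gene NKG7 rose by 1.68 ± 0.27 (adjusted p = 3.49e-05). Of the 8 tested monocytic markers 3 rose and 1 fell, and that list summed to 10978 to 13434 units with RA plus TNF and 12916 to 15479 with RA alone. CD14 averaged 1564.9 units with RA plus TNF and 77.9 with RA alone, and PRTN3 1016.4 and 4050.8. The part of both lists in these results was not tested.

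**Figure D4:**
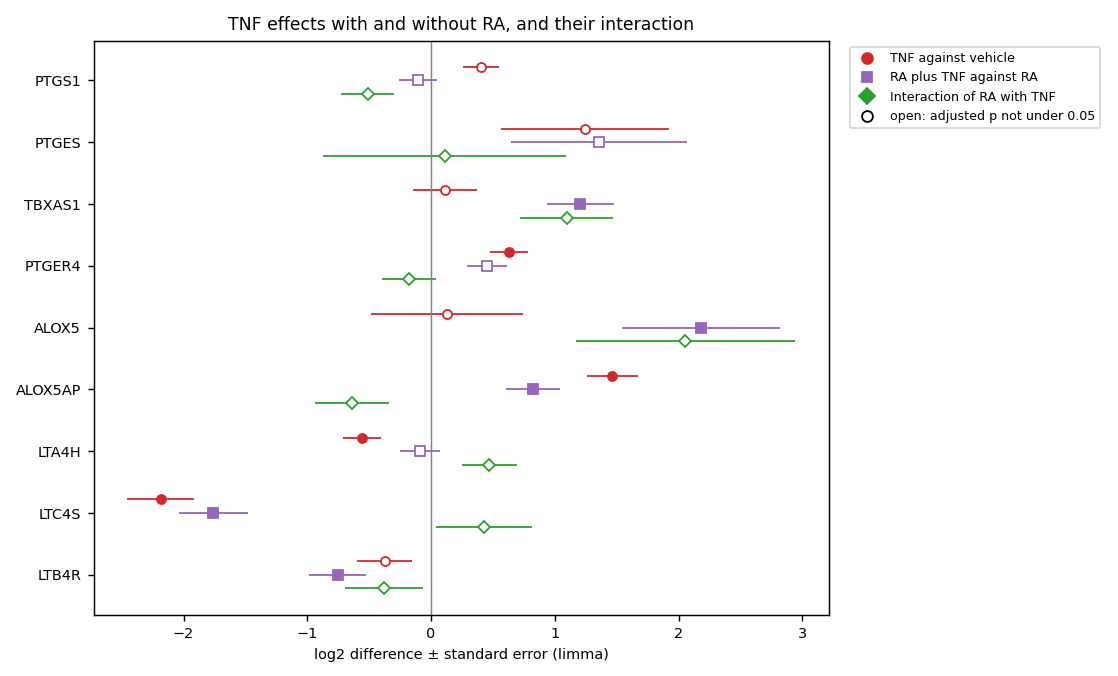
Log2 difference with its standard error for the 9 tested members, for TNF against vehicle, RA plus TNF against RA, and the interaction of RA with TNF. Filled symbols had an adjusted p under 0.05 in limma. LTC4S is lower with TNF both with and without RA, and every interaction symbol is open.

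Whether the TNF difference depended on RA was tested by the interaction, the TNF effect with RA minus the TNF effect without it. limma called none of the 10 members, against 0.298% of all genes, while 5 members had an unadjusted p under 0.05. The share of all genes at that unadjusted threshold was not computed, and nothing is read from the 5. TBXAS1 had the smallest adjusted p (1.10 ± 0.37 on the log2 scale, adjusted p = 0.296), from a TNF difference of 1.21 with RA and 0.11 without. PTGS1 (-0.51 ± 0.21, adjusted p = 0.482) and ALOX5 (2.05 ± 0.89, adjusted p = 0.509) followed. Without the RA well at 3.4 units the ALOX5 interaction was 1.05, and with any other array left out it was at least 1.58. ALOX5AP was at -0.64 ± 0.30 (adjusted p = 0.574), with -0.03 within array set 1 and -1.52 within set 2, where it was called (adjusted p = 0.0475). LTC4S was at 0.43 ± 0.39 (adjusted p = 0.865), with 1.22 within set 1 and -0.59 within set 2. Quantile normalization called PTGS1 (-0.56). Of the 42 other pathway genes none was called and 6 had an unadjusted p under 0.05, again without a share of all genes beside it.

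RA plus TNF was also set against TNF alone, again as a description. The fit put 7 of 10 members past the threshold, 6 higher and 1 lower, against 6.79% of all genes, and nothing is read from the count because the choice used this comparison. PTGES read 396, 559.9, 510.2, 565 and 509 units with RA plus TNF, against 11.7, 6.2, 41.4, 3 and 36.2 with TNF alone, a log2 difference of 5.38 ± 0.71, or 3.44 on log2 of signal plus 32 units. The TNF wells averaged 19.7 ± 17.8 units beside a mean array median of 33.3, so the size of the first difference rests on dim signals. The second PTGES probe set, 207388_s_at, was higher by 2.59 ± 0.525, without overlap. ALOX5AP was higher by 1.85 ± 0.22 (2.17 within array set 1 and 1.37 within set 2), and LTB4R by 1.32 ± 0.23.

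LTA4H, lower with TNF alone, read 2181, 2280.3, 2126, 2147 and 1887 units with RA plus TNF, against 1086, 1011, 1056, 1213 and 1176 with TNF alone. The groups were clearly apart, at 1.00 ± 0.16. PTGS1 was higher by 0.62 ± 0.15 and TBXAS1 by 1.18 ± 0.27, both without overlap of signals, though the centred values of PTGS1 overlapped. PTGER4 read 3068, 2729, 2804, 2071 and 2441 units with RA plus TNF, against 4764, 4414, 4501, 3218 and 3261 with TNF alone, at -0.55 ± 0.16. LTC4S, low in both groups, differed by 0.18 ± 0.28 and ALOX5 by 1.30 ± 0.64, both with overlap of signals, while the centred values of ALOX5 did not overlap.

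The order of the levels over the 8 groups is given within array set 2, which has wells of every group. PTGES was ordered from RA plus TNF (536.7 ± 39.4 units, SD, n = 2) through RA at 40 h (294.5 ± 33.3, n = 2), RA at 16 h (189 ± 34.4, n = 3) and RA at 6 h (73.2 ± 13.0, n = 2) to the rest, and none of these neighbours overlapped. Vehicle at 16 h (20.2 ± 11.3, n = 5), TNF (19.6 ± 23.5, n = 2), RA at 2 h (16.6 ± 6.2, n = 2) and vehicle at 40 h (9.7 ± 7.6, n = 3) did not differ beyond their spread. With the wells of set 1 added, RA at 40 h (219 ± 76.8, n = 5) overlapped RA at 16 h.

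ALOX5AP was ordered within set 2 from RA plus TNF (8084.7 ± 1306 units, SD, n = 2) through RA at 40 h (6531 ± 109, n = 2), RA at 16 h (5930 ± 773, n = 3), TNF (3071 ± 284, n = 2), RA at 6 h (2925 ± 349, n = 2), RA at 2 h (1749 ± 282, n = 2) and vehicle at 16 h (1141 ± 187, n = 5) to vehicle at 40 h (991 ± 35.4, n = 3). The neighbours RA at 40 h and RA at 16 h overlapped, as did TNF with RA at 6 h, and the vehicle groups. Over both sets RA at 40 h averaged 5004 ± 1444 and TNF 2405 ± 628 (n = 5 each), which puts each below its neighbour. LTC4S was lowest in the groups with TNF. It averaged 115 ± 33.2 with RA plus TNF and 164 ± 33.4 with TNF alone within set 2 (n = 2 each), and between 325 and 404 units in the other 6 groups.

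Among 12439 genes, the patterns most like that of PTGES over the 33 arrays were those of FMNL2 (Pearson r = 0.888), SIGLEC11 (0.862), NGFR (0.861), ACP3 (0.86) and APOC1 (0.855). The genes most like ALOX5AP were FCER1G (0.959), NCF1 (0.954), SIGLEC16 (0.946), MMP2 (0.93) and CD38 (0.929). The 33 arrays share groups and array sets, so these values describe a ranking and carry no p. Within the members, the brightest PTGS1 probe set had r of 0.971, 0.768 and 0.667 with its other probe sets, and LTB4R had 0.902 and 0.825. The pairs of PTGES (0.653), TBXAS1 (0.229), PTGER4 (0.161) and PTGS2 (0.15) were looser.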

How the data were processed

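RNA of 33 wells was hybridised to Affymetrix HG-U133 Plus 2 arrays. The deposited values are log2 signals centred by the authors on each array's median, which was read from the values. The submitters' processing notes name GCOS, the Affymetrix software, as the source of the deposited signals, and no version is given in the sources used here. Signals were recovered as powers of 2 of the distance from the array's lowest value: those under 8 units were multiples of 0.1 within 0.0047, and the mean trimmed by 2% at each end was between 149.9 and 150.03 on every array. Of 54613 probe sets that are not controls, 41091 had 1 gene symbol, 1801 several and 11721 none.

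limma 3.58.1 (R 4.3.3) with lmFit and eBayes with an intensity trend was fitted to the deposited values of 27307 probe sets, those with a mean of at least 0.882 (40 h groups) or 0.891 (time course) of the array median. Calls needed a Benjamini-Hochberg adjusted p under 0.05 over all of them. The 40 h fit held 21 arrays with array set as a covariate (16 residual degrees of freedom). The time course fit held the 17 arrays of set 2 that had RA or vehicle (11 residual degrees of freedom). Errors are SE for differences and SD for levels. The fits were tested on simulated data. Replicate numbers were not used as pairs, since the labels tie them to nothing shared. The members and lists were chosen with earlier results of these data known. Named genes are the 10 members, up to 4 called pathway genes a comparison by smallest adjusted p, and the 5 genes most like PTGES and ALOX5AP. Promoters are from RefSeq. For arrays, their number limits the precision. Centring hides any change of total RNA per cell.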

Additional observations from a re-analysis of the deposited data

Results flagged for a closer look

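A single array lay far from the rest of its group 6 times in 110 tests of groups of 4 to 10 arrays, where chance gives about 1 in 20. The measure is the gap to the nearest array divided by the group's range, both on the deposited log2 scale. ALOX5 in RA replicate 2 at 40 h read 3.4 units, with the other 4 RA wells at 82.2 to 128 (0.777 of the range). PTGES in replicate 5 of vehicle at 16 h read 2.5 units, with the others at 18.2 to 33 (0.765). PTGS1 by probe set 205127_at in vehicle replicate 2 at 40 h read 2.4 units, with the others at 46.3 to 70.5 (0.736), while its brightest probe set was not set apart there. PTGS2 by 204748_at read 2.9 units in vehicle replicate 1 at 40 h, with the others at 17.7 to 36.4 (0.911), and 18.2 units in RA replicate 3, with the others at 20 to 39.5 (0.791). LTA4H in vehicle replicate 3 at 40 h read 1460 units, with the others at 1570 to 1950 (0.665).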

How the results depend on the processing

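Counts of called members moved over 1.5 times as follows. With TNF against vehicle there were 4, but 2 from set 1 by itself and 2 from set 2 by itself. With RA plus TNF against RA there were 5, and 1 in set 2 alone, 2 without the intensity trend and 2 without the array set covariate. With RA plus TNF against TNF there were 7, and 4 in each set alone. The interaction gave 0, and 1 in set 2 alone and 1 after quantile normalization. RA at 2 h gave 0, and 1 with all 8 vehicle arrays pooled, 1 at gene level, 1 on signal plus 32 units, 1 after quantile normalization and 1 on uncentred signals. RA at 6 h gave 3, and 5 on signal plus 32 units. Leaving out 1 array at a time gave 0 to 1 at 2 h (1 without replicate 2 of vehicle at 16 h), 2 to 3 at 6 h, 4 at 16 h, 3 to 4 for TNF, 4 to 5 for RA plus TNF against RA, 6 to 7 against TNF, 4 to 5 for RA against vehicle and 0 for the interaction. With replicate number as a replicate block the counts were 4 for TNF, 5 for RA plus TNF against RA, 0 for the interaction, 0 at 2 h, 3 at 6 h and 4 at 16 h, and no count changed. Same-numbered wells of the 40 h groups correlated in their deviations between -0.154 and 0.019, so the numbers give no pairing. Over 87 single probe set results and 1688 alternative values, 40 lost their call and 24 gained one, counted in the tested comparisons only. In the 2 comparisons given as a description, lost and gained calls were not counted. Values there were judged by size, and 11 moved past the spread. No value reversed a call. The cause of these shifts was not tested, and the fits of single sets also held fewer arrays. Dim probe sets, PTGES without RA and PTGS2 throughout, limit what can be measured.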
